A study of Mus with 6 samples.

Results

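Matrix metalloproteinases are zinc-dependent enzymes that cut collagens, other matrix proteins and proteins of the cell surface. They are made as inactive precursors, and tissue inhibitors of metalloproteinases (TIMPs) bind and block the active enzymes. In brain they act on basement membranes of vessels and meninges and on the matrix around neurons, and different cell types make different members. The 10 genes described here are 6 metalloproteinases (Mmp2, Mmp3, Mmp14, Mmp15, Mmp16 and Mmp17) and the 4 inhibitors Timp1, Timp2, Timp3 and Timp4, out of 18887 genes with values. They were chosen by gene symbol with the IRKO and control values of these libraries already known. Their differences between the groups are therefore given as a description, with no p-value, and nothing is inferred from how many passed a threshold.

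The libraries are RiboTag precipitates, in which a tagged ribosomal protein is used to pull down the ribosomes of a chosen cell type with their mRNA, here microglia from whole mouse brain. There are 4 IRKO libraries, with a KO genotype that is read from the title of the study as loss of the insulin receptor in microglia, and 2 control libraries, with the genotype Ctr. Both groups carry the precipitation step, and no unprecipitated library was analysed here. The sources used here do not give the Cre driver, strain, age, sex or number of animals behind each library, so the p-values measure only the spread between libraries, which may be technical.

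Each library held 13858978 to 14568773 recovered reads in IRKO and 16883098 or 19010680 in the controls. Insr, the insulin receptor gene, had normalized counts of 357, 366, 290 and 340 in IRKO replicates 1 to 4, against 565 and 532 in the controls. A normalized count is the read count of a gene divided by 1 scaling factor per library. All 15 listed microglia markers were higher in IRKO and all 14 astrocyte markers lower, and none of these markers was at 0. The microglia markers summed to 200333 to 284140 in IRKO, against 76840 and 96827 in the controls. The astrocyte markers summed to 46661 to 78514 in IRKO, against 594840 and 753558 in the controls. The labelled cell type was thus present in both groups, beside much astrocyte RNA in the controls. In such bulk libraries, fewer cells of a type and less RNA per cell cannot be told apart.

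The 10 genes differed between the groups in several ways. The secreted enzymes Mmp2 and Mmp3 were several-fold higher in IRKO, most of all in replicate 3. Mmp14, Mmp15, Timp3 and Timp4 lay below both controls in all 4 IRKO libraries. Mmp16, Mmp17 and Timp2 were moderately higher in IRKO with little spread, and Timp1 overlapped between the groups. Limma, a linear model fitted to log2(value + 1) of all 14698 genes that passed a filter on low values, placed 5 of the 10 higher and 4 lower at an adjusted p under 0.05. The same threshold was passed by 55.6% of all tested genes, 26.6% higher and 29.0% lower in IRKO. For 9 of the 10 the 4 IRKO values did not overlap with the controls, as was the case for 67.6% of all tested genes. All 10 genes passed the filter, Mmp3 only through its IRKO values.

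The directions depended in part on scaling. With each library scaled to an equal mean of the microglia markers, the median log2 difference of all genes moved to −1.57, where it was 0.02 as deposited. In that scaling Mmp16 (−0.51), Mmp17 (−0.66), Timp1 (−0.89) and Timp2 (−0.90) turned to negative log2 differences, although all 4 stayed above the median of all genes. Mmp2 (0.89) and Mmp3 (2.18) stayed positive, and Mmp2 no longer passed limma's threshold. Mmp17 and Timp2 passed it as lower in that scaling, beside Mmp14, Mmp15, Timp3 and Timp4, so 6 of the 10 were lower and 1 higher. Of all 14698 tested genes, 12312 were lower and 43 higher in that scaling, so lower calls there are not particular to the members. The plot of log2 differences sets both scalings side by side.

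**Figure D1:**
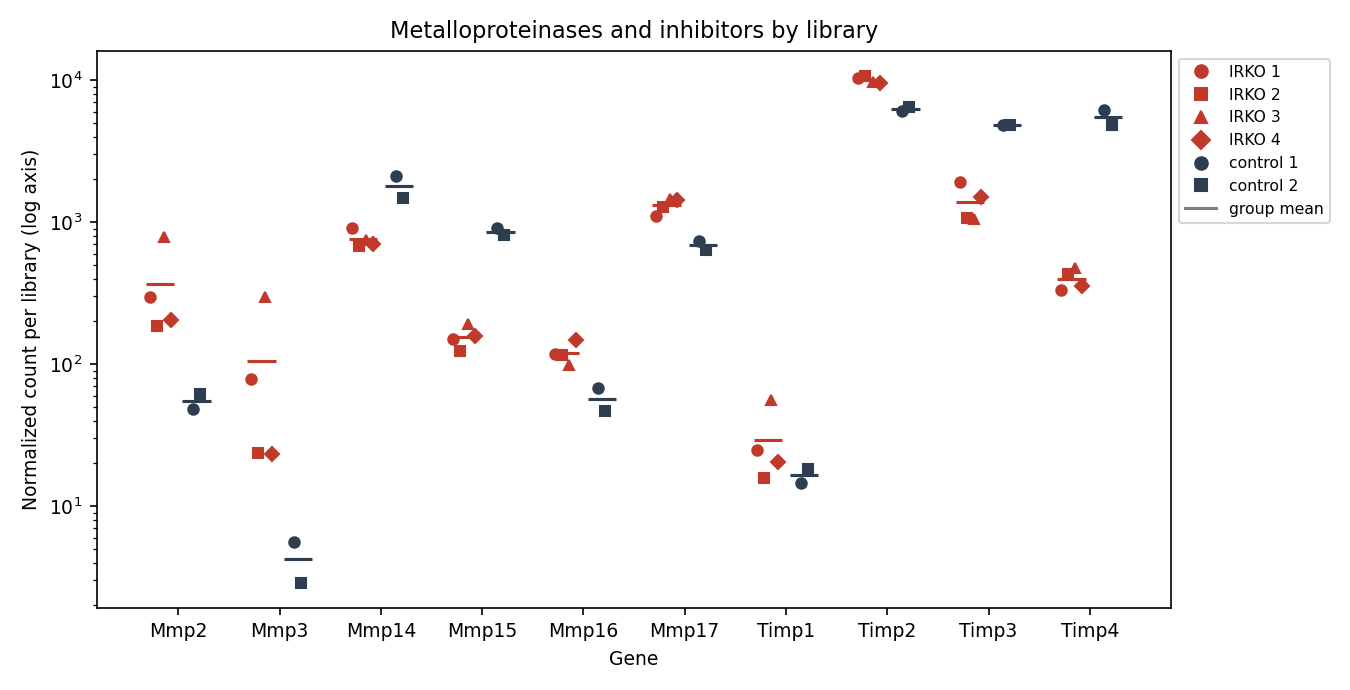
Normalized count of each gene in each library on a log axis, with IRKO libraries in red on the left of each pair, control libraries in dark blue on the right, and a bar at each group mean. IRKO replicate 3 (triangle) stands highest for Mmp2, Mmp3 and Timp1, while Timp4, Mmp15, Timp3 and Mmp14 lie below both controls in all 4 IRKO libraries.

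Mmp2, a secreted gelatinase that degrades denatured collagen and basement membrane collagen, lies on chromosome 8 from 92827290 to 92853421 (GRCm38.p6). Its normalized count was 297, 186, 786 and 205 in IRKO replicates 1 to 4, against 48.4 and 62.0 in controls 1 and 2. Every IRKO library lay above both controls, and replicate 3 held more than any other library. The means were 368 ± 283 (SD, n = 4) in IRKO and 55.2 ± 9.62 (SD, n = 2) in the controls, a ratio of 6.68 that was 4.16 without IRKO replicate 3. The log2 difference was 2.47 ± 0.495 (SE), or 2.02 without that library.

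Mmp3, a stromelysin that cuts many matrix proteins and activates other metalloproteinases, lies on chromosome 9 from 7445822 to 7455975. It had 78.3, 23.7, 298 and 23.4 normalized counts in IRKO replicates 1 to 4, against 5.62 and 2.90 in controls 1 and 2. The control values rest on 5 and 3 reads, and the IRKO values on 79, 24, 307 and 24 reads. The IRKO libraries differed among themselves by 12.8-fold from lowest to highest, yet the lowest still exceeded both controls. The ratio of group means was 24.8, and 9.79 without IRKO replicate 3. The log2 difference was 3.59 ± 0.912 (SE) with all libraries, 2.83 without IRKO replicate 3, and 3.21 without control replicate 2, where it no longer passed limma's threshold.

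Some genes of fibroblast matrix peaked in the same IRKO library as Mmp2 and Mmp3. The genes Col3a1 and Postn are among the 3 nearest to Mmp3 in profile over these same libraries. Their likeness to Mmp3 therefore carries no weight of its own. Col3a1, a fibrillar collagen, had 682, 242, 1841 and 223 normalized counts in IRKO replicates 1 to 4, against 88.9 and 46.5 in the controls. Postn, the matrix protein periostin, had 445, 121, 1434 and 130 in IRKO, against 36.0 and 25.2 in the controls. Both were highest in replicate 3 and next in replicate 1, like the 2 enzymes. Both also lost limma's call without control replicate 2, at log2 differences of 2.51 for Col3a1 and 3.10 for Postn. Of the 12 listed fibroblast markers 9 were higher and none lower in IRKO, none was at 0, and their sum was 7851 to 18594 in IRKO, against 4509 and 5434 in the controls. Of these 12 markers 7 were highest in IRKO replicate 3 and 5 in replicate 1, and the sum itself was highest in replicate 1. Igf2 was the largest part of the sum in both controls and in IRKO replicate 1. It had 10086, 3733, 2778 and 5833 normalized counts in IRKO replicates 1 to 4, against 2575 and 3754 in the controls. It thus overlapped between the groups and did not pass limma's threshold. Col1a1, for example, was highest in IRKO replicate 3 (3349) but next in replicate 4 (2875), above replicate 1 (1512).

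Set against the summed fibroblast markers of the same library, Mmp2 stood at 16.0, 23.7, 50.8 and 14.8 per 1000 in IRKO replicates 1 to 4, against 10.7 and 11.4 per 1000 in the controls. The gap between the groups was thus smaller on this base, and replicate 3 was still the highest. This base leans on Igf2, above all in the controls. Whether the groups stay apart on a base without Igf2 was not tested. Mmp3 stood at 1.69 to 19.3 per 1000 in IRKO, against 0.535 and 1.25 per 1000 in the controls. The part of fibroblast RNA in the differences of Mmp2 and Mmp3 was not tested.

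**Figure D2:**
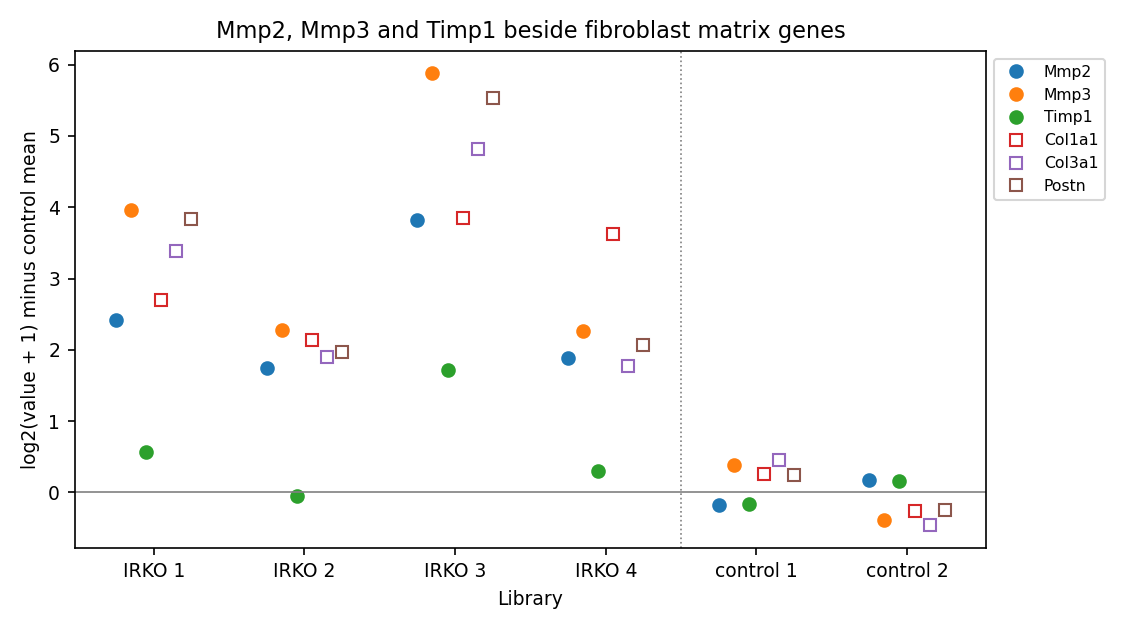
The log2(value + 1) of each gene minus its control mean (y axis) in the 4 IRKO and then the 2 control libraries (x axis), with filled circles for Mmp2, Mmp3 and Timp1 and open squares for the fibroblast matrix genes Col1a1, Col3a1 and Postn. All 6 genes are highest in IRKO replicate 3, and Timp1 stays closest to the controls.

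Among the membrane-bound enzymes, those on the cell surface by a transmembrane segment split in direction. Mmp14, which cleaves collagen at the cell surface and takes part with Timp2 in activating pro-Mmp2, lies on chromosome 14 from 54431598 to 54442456. Its normalized count was 910, 681, 750 and 704 in IRKO replicates 1 to 4, against 2116 and 1479 in controls 1 and 2. All IRKO values lay below both controls, at means of 761 ± 103 (SD, n = 4) in IRKO and 1798 ± 450 (SD, n = 2) in the controls. The log2 difference was −1.22 ± 0.171 (SE). Mmp2, the enzyme that Mmp14 activates, thus differed in the other direction, and the ratio of Mmp2 to Mmp14 was 0.274 to 1.05 in IRKO, against 0.0229 and 0.0419 in the controls.

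Mmp15, a close relative of Mmp14, lies on chromosome 8 from 95352296 to 95374293. It had 151, 123, 193 and 157 normalized counts in IRKO replicates 1 to 4, against 913 and 807 in the controls. The groups were far apart relative to their spread, at 156 ± 28.9 (SD, n = 4) in IRKO and 860 ± 74.8 (SD, n = 2) in the controls. The log2 difference was −2.47 ± 0.183 (SE), a mean 5.52 times as high in the controls. Within a library Mmp14 exceeded Mmp15 by a ratio of 3.88 to 6.05 in IRKO, against 1.83 and 2.32 in the controls. Since a ratio within a library does not change with scaling and gene length cancels between groups, Mmp15 was reduced more than Mmp14 in all 4 IRKO libraries.

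Mmp16, also a transmembrane enzyme, spans chromosome 4 from 17853072 to 18117479. Its normalized count was 118, 116, 98.1 and 148 in IRKO replicates 1 to 4, against 67.5 and 46.5 in controls 1 and 2. The groups did not overlap as deposited, with means of 120 ± 20.7 (SD, n = 4) in IRKO and 57.0 ± 14.9 (SD, n = 2) in the controls. The log2 difference of 1.07 ± 0.235 (SE) turned to −0.51 in the microglia-marker scaling.

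Mmp17, which is held on the membrane by a lipid (GPI) anchor, lies on chromosome 5 from 129584151 to 129611099. It had 1098, 1278, 1468 and 1434 normalized counts in IRKO replicates 1 to 4, against 741 and 636 in the controls. The means were 1319 ± 169 (SD, n = 4) in IRKO and 689 ± 74.3 (SD, n = 2) in the controls, with a log2 difference of 0.93 ± 0.144 (SE) that turned to −0.66 in the microglia-marker scaling. In contrast to this scaled value, the ratio of Mmp17 to Mmp14 does not depend on scaling. That ratio was 1.21, 1.88, 1.96 and 2.04 in IRKO replicates 1 to 4, against 0.350 and 0.430 in the controls.

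The inhibitors differed from each other as much as the enzymes did. Timp4, an inhibitor with a narrower tissue range than Timp2, lies on chromosome 6 from 115244444 to 115252205. Its normalized count was 331, 432, 479 and 356 in IRKO replicates 1 to 4, against 6186 and 4866 in controls 1 and 2. It had the lowest log2 difference of the 10 genes, at −3.79 ± 0.172 (SE), and its mean was 13.8 times as high in the controls. The means were 399 ± 68.3 (SD, n = 4) in IRKO and 5526 ± 933 (SD, n = 2) in the controls.

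Timp3, which binds to the matrix and also inhibits ADAM and ADAMTS enzymes, lies on chromosome 10 from 86300412 to 86349505. It had 1923, 1065, 1061 and 1506 normalized counts in IRKO replicates 1 to 4, against 4874 and 4810 in the controls. The controls differed little and the IRKO libraries by 1.81-fold, and all IRKO values lay below both controls. The means were 1388 ± 413 (SD, n = 4) in IRKO and 4842 ± 45.0 (SD, n = 2) in the controls, a log2 difference of −1.85 ± 0.229 (SE).

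Timp2, which both inhibits metalloproteinases and serves as the adaptor between Mmp14 and pro-Mmp2, lies on chromosome 11 from 118301061 to 118355411. Its normalized count was 10333, 10702, 9735 and 9574 in IRKO replicates 1 to 4, against 6029 and 6437 in the controls. It varied less between IRKO libraries than any other of the 10 genes, with a coefficient of variation of 5.20%. The means were 10086 ± 525 (SD, n = 4) in IRKO and 6233 ± 288 (SD, n = 2) in the controls. The log2 difference of 0.69 ± 0.12 (SE) turned to −0.90 in the microglia-marker scaling. Per 1000 of the summed microglia markers, Timp2 stood at 35.4 to 48.6 in IRKO, against 62.3 and 83.8 in the controls.

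Timp1, an inducible inhibitor with weak action on most membrane-bound metalloproteinases, lies on chromosome X from 20870166 to 20874737. It was read at low depth, with 24.8, 15.8, 56.3 and 20.5 normalized counts in IRKO replicates 1 to 4, against 14.6 and 18.4 in the controls. Replicate 2 of IRKO lay between the controls, and replicate 3 stood highest, as it did for Mmp2 and Mmp3. The log2 difference was 0.63 ± 0.489 (SE), did not pass limma's threshold, and was 0.27 without IRKO replicate 3. These values rest on 16 to 58 reads in IRKO and 13 or 19 reads in the controls.

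**Figure D3:**
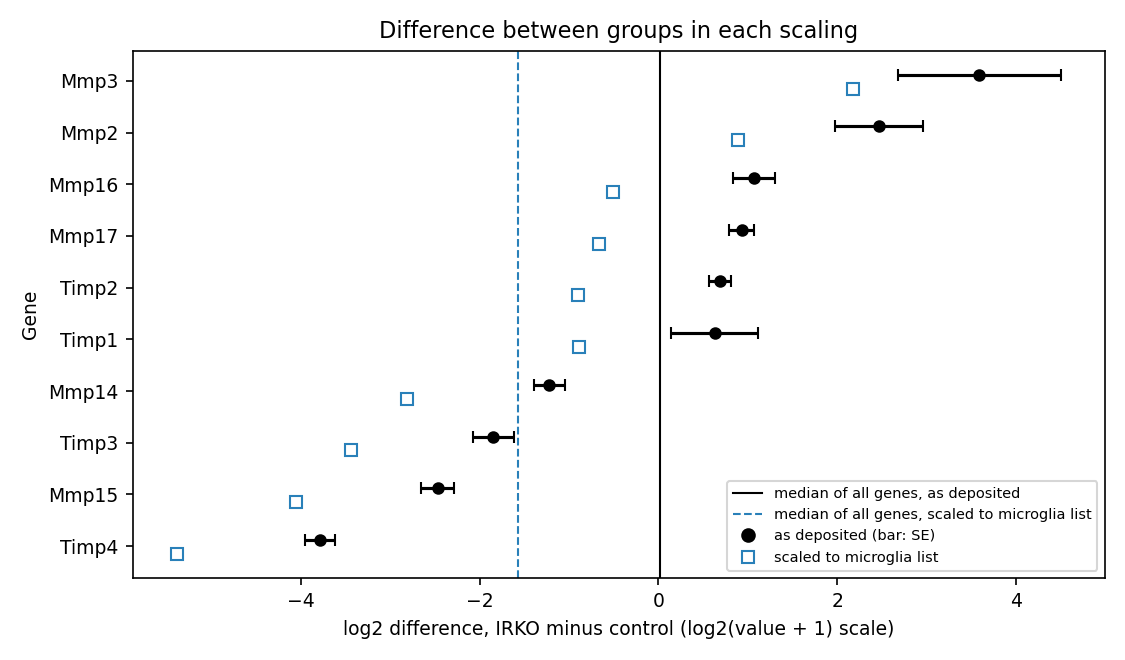
The log2 difference of each gene, IRKO minus control (x axis), as deposited (black circles, bars are SE) and with libraries scaled to the microglia markers (open blue squares), with vertical lines at the median of all genes in each scaling. Mmp16, Mmp17, Timp1 and Timp2 cross 0 between the scalings, whereas Timp4, Mmp15, Timp3 and Mmp14 lie below the median of all genes in both.

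The makeup of the inhibitor and enzyme transcripts therefore differed between the groups, in a way that scaling does not touch. Shares are of summed normalized counts, not per gene length, so they are compared between groups and not between genes. Timp2 made up 81.9, 87.6, 85.9 and 83.6% of the Timp sum in IRKO replicates 1 to 4, against 35.2 and 39.9% in the controls. Timp4 made up 2.62 to 4.23% in IRKO, against 30.2 and 36.2% in the controls. Timp3 made up 8.72 to 15.2% in IRKO, against 28.5 and 29.8% in the controls. No Timp2, Timp3 or Timp4 share overlapped between the groups.

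Among the enzymes, Mmp17 took 40.8 to 53.7% of the Mmp sum in IRKO, against 19.0 and 21.0% in the controls. Mmp15 took 5.11 to 5.87% in IRKO, against 23.5 and 26.6% in the controls. Mmp2 took 21.9% in IRKO replicate 3 and 7.66 to 11.2% in the other IRKO libraries, against 1.24 and 2.04% in the controls. Despite these shifts, the sum of inhibitors over the sum of enzymes overlapped between the groups, at 4.76, 5.07, 3.15 and 4.29 in IRKO replicates 1 to 4, against 4.39 and 5.32 in the controls. With Timp2 left out of the sum the ratio was 0.444 to 0.859 in IRKO, against 2.85 and 3.19 in the controls, so the overlap rests on Timp2.

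**Figure D4:**
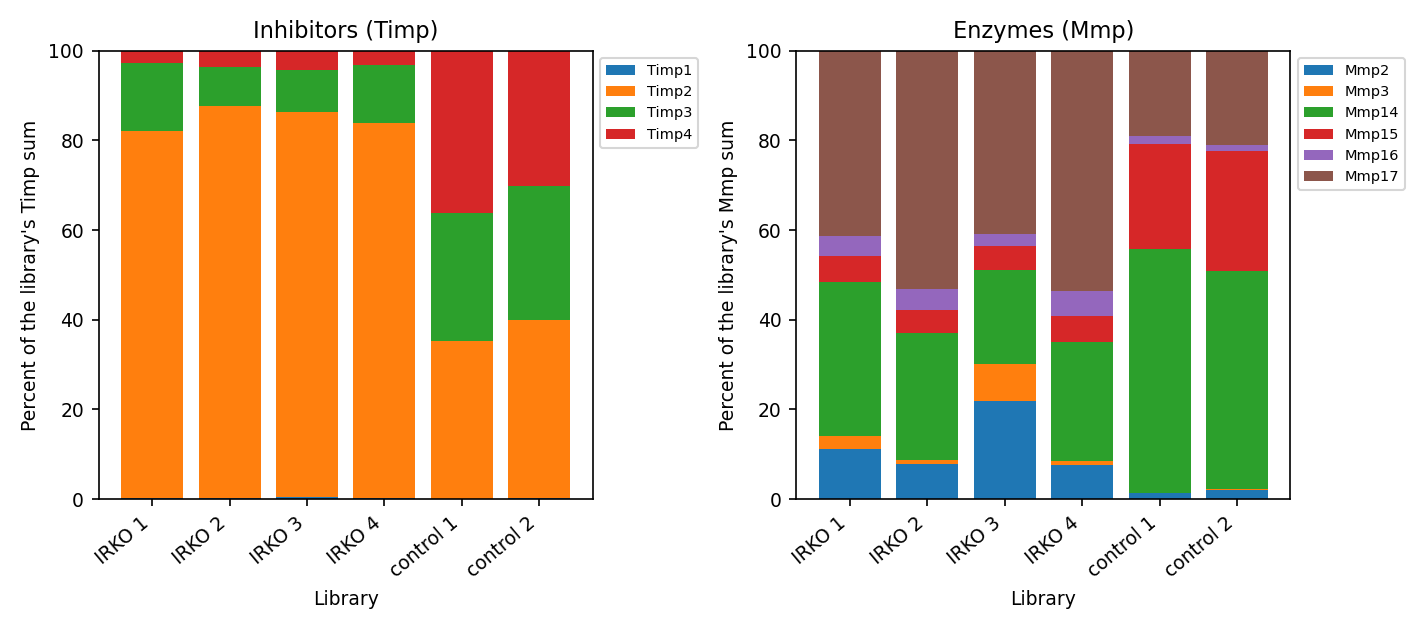
Stacked bars of the percent of each library's Timp sum (left) and Mmp sum (right), with the 4 IRKO libraries before the 2 controls on each x axis and 1 colour per gene. Timp2 fills over 80% of the Timp sum in IRKO and under 40% in the controls, Mmp17 fills a larger part of the Mmp sum in IRKO, and Timp1 is too small to see.

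The 4 members that were lower in IRKO shared that direction with the astrocyte markers, to different degrees. Timp4 (log2 difference −3.79) lay within the range of those markers, −5.13 to −2.69. Mmp15 (−2.47), Timp3 (−1.85) and Mmp14 (−1.22) lay above it. Among the IRKO libraries, 10 of the 14 astrocyte markers were highest in replicate 3, as were Timp4 and Mmp15. Timp3 and Mmp14 were highest in replicate 1. Per 1000 of the summed astrocyte markers, Timp4 stood at 4.21, 8.83, 10.3 and 7.12 in IRKO replicates 1 to 4, against 8.21 and 8.18 in the controls, so the groups overlapped on this base. Timp3 stood at 21.8 to 30.2 per 1000 in IRKO, against 6.47 and 8.09 in the controls. Mmp14 stood at 11.6 to 16.1 per 1000 in IRKO, against 2.49 and 2.81 in the controls. Mmp15 stood at 1.92 to 4.14 per 1000 in IRKO, against 1.21 and 1.36 in the controls. Relative to the controls, Timp3, Mmp14 and Mmp15 were thus reduced less than the marker sum in every IRKO library.

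The marker sum of IRKO replicate 1, at 78514, stood above those of the other IRKO libraries, and Timp4 per 1000 was lowest there. Without that library Timp4 stood at 7.12 to 10.3 per 1000 in IRKO and still overlapped with the controls. The part of astrocyte RNA in the lower values of these 4 genes was not tested.

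**Figure D5:**
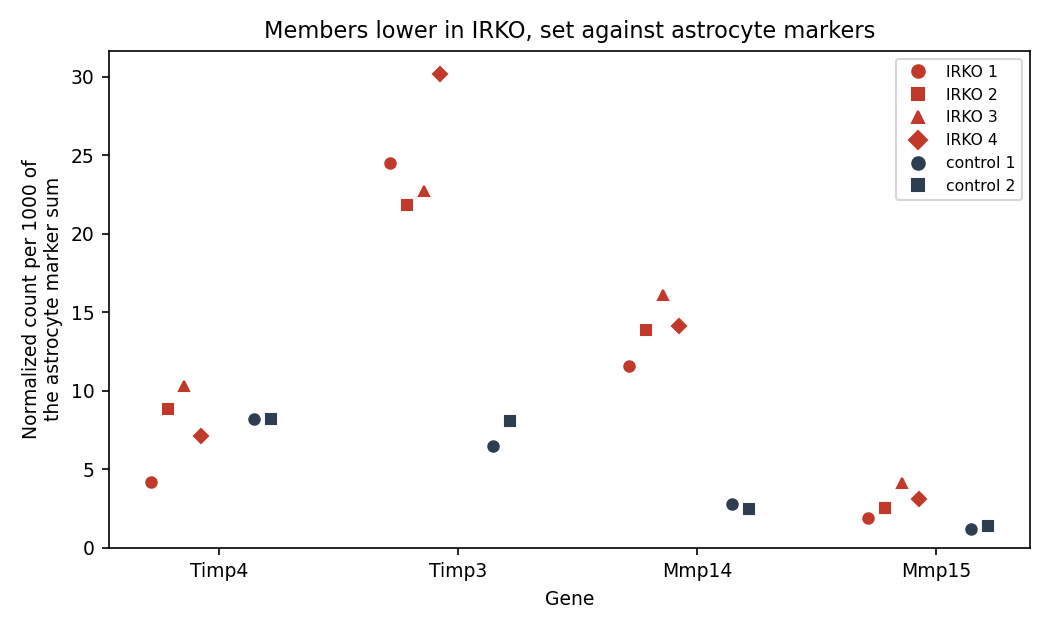
Normalized count per 1000 of the summed astrocyte markers of the same library (y axis from 0) for the 4 members lower in IRKO, with IRKO libraries in red on the left and control libraries in dark blue on the right. Timp4 overlaps between the groups, while Timp3, Mmp14 and Mmp15 are higher in IRKO on this base.

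Other cell types that express such genes were set beside them. The 10 mural markers were mixed, with 4 higher, 2 lower and 4 that did not pass, and summed to 2927 to 12254 in IRKO, against 3721 and 4221 in the controls. Of 12 endothelial markers 7 were higher and 1 lower, and of 9 border macrophage markers 3 of the 7 tested were higher and none lower. Oligodendrocyte markers were higher in 7 of 10 and lower in 1 of 10, and all 10 had their highest IRKO value in replicate 3. Of 12 neuron markers 10 were higher and none lower, and of 10 oligodendrocyte precursor markers 5 were higher and 2 lower. Median log2 differences were 0.84 for neuron, 0.87 for oligodendrocyte and 0.80 for endothelial markers. They were 0.74 for oligodendrocyte precursor, 0.65 for mural, 1.09 for border macrophage and −0.73 for choroid plexus markers. Beside these stood 0.93 for Mmp17, 1.07 for Mmp16 and 0.69 for Timp2, so the neuron list was not alone in lying near them. The neuron markers summed to 83260 to 107481 in IRKO, against 47348 and 59686 in the controls. The 10 choroid plexus markers summed to 1082 to 12622 in IRKO, against 4129 and 68820 in controls 1 and 2. Most of each control sum was Ttr, at 3549 and 66778 in controls 1 and 2. Timp3 was at 4874 and 4810 in these controls, and its relation to the choroid plexus markers was not tested. None of these markers was at 0 in all libraries, and their part in the members' values was not tested.

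Timp1, Timp3 and Timp4 sit inside synapsin genes, which encode vesicle proteins of neurons. In the RefSeq annotation of GRCm38.p6, Timp1 lies within Syn1, Timp3 within Syn3 and Timp4 within Syn2. The sources used here do not say whether reads were counted by strand, so reads of a Timp gene and of its host cannot be told apart with certainty. Syn2 had 3872, 4376, 4594 and 3683 normalized counts in IRKO replicates 1 to 4, against 2440 and 2748 in the controls, while Timp4 inside it was far lower in IRKO. Its log2 difference was 0.67 ± 0.129 (SE, limma adjusted p = 0.00208), or −0.93 in the microglia-marker scaling. Syn3 was at 166 to 203 in IRKO and 112 or 158 in the controls, with a log2 difference of 0.51 (limma adjusted p = 0.0412), or −1.08 in that scaling and 0.26 without control replicate 1, where its call was lost. The same happened on leaving out IRKO replicate 1 (0.47), 2 (0.51) or 4 (0.47). Syn3 also missed the threshold with edgeR (adjusted p = 0.0516), with DESeq2 (adjusted p = 0.0619) and in limma with no filter on low values (adjusted p = 0.0573). Syn1 was at 4829 to 6346 in IRKO, against 2333 and 3565 in the controls, with a log2 difference of 0.96 (limma adjusted p = 0.002), or −0.63 in that scaling. Cep295nl, inside Timp2, had at most 3.96 normalized counts in any library.

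The genes whose profile over the 6 libraries was closest to each member were found by the root-mean-square distance between log2 profiles, each centred on its own mean. Mmp3 was nearest to Lox (0.15), which crosslinks collagen, Postn (0.156) and Col3a1 (0.367). Mmp2 was nearest to Col6a3 (0.271), a collagen chain, Ebf1 (0.287) and Ifi204 (0.296). Timp4 was nearest to Dio2 (0.0838), which activates thyroid hormone, Ppp1r3c (0.0933), a glycogen-targeting phosphatase subunit, and Slc1a2 (0.0936), a glutamate transporter. The neighbours of Mmp15 were Aifm2 (0.0772), Gli3 (0.0902), a transcription factor of hedgehog signalling, and Kcnk1 (0.112), a potassium channel. Mmp16 lay close to Ptpn6 (0.0368), a phosphatase of blood cells, Grn (0.0613), which encodes progranulin, and Apobr (0.0623). Timp2 was nearest to Kmt5a (0.0255), Nmnat2 (0.0369) and Ubr3 (0.0404), and Mmp17 to Cntnap1 (0.0483), Hs3st4 (0.0523) and Ica1l (0.0537). Timp3 lay nearest to Atoh8 (0.104), Slc41a1 (0.115) and Ptpn13 (0.118), Mmp14 to Poll (0.101), Ccdc51 (0.101) and Mif4gd (0.102), and Timp1 to Cd36 (0.154), Xlr3a (0.172) and Sfrp2 (0.176). For members whose groups did not overlap, these distances are mostly set by the difference between the groups. Timp1 overlapped, and its profile was marked most by the high value of IRKO replicate 3.

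Beyond the 10 genes, 6 lists of related genes held 95 genes with values, of which 84 were tested with limma. Across these lists 34 genes rose and 15 fell at an adjusted p under 0.05, beside 26.6% and 29.0% of all tested genes, and their median log2 difference was 0.52. These counts hold for the deposited scaling, and with libraries scaled to the microglia markers only 1 of the 84 rose and 53 fell. Of all 14698 tested genes, 43 rose and 12312 fell in that scaling. Without control replicate 1, 21 rose.

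Of the other matrix metalloproteinases, 11 had values and 7 were tested, with 2 rises, 1 fall and a median of 0.64. No rise was called without control replicate 1 or without IRKO replicate 3, and 1 without IRKO replicate 4. Mmp28, a secreted enzyme known as epilysin, had 17.8 to 33.1 normalized counts in IRKO, against 157 and 83.3 in the controls (log2 −2.15 ± 0.353, SE, limma adjusted p = 0.000838). Mmp24, another transmembrane enzyme, had 378, 449, 582 and 605 in IRKO, against 279 and 360 in the controls (0.64 ± 0.207, limma adjusted p = 0.0261). Its call was lost without control replicate 1 (0.46), IRKO replicate 3 (0.56) or IRKO replicate 4 (0.54), and with no variance trend (adjusted p = 0.0557), and the value turned to −0.95 in the microglia-marker scaling. Mmp23 had 25.3 to 44.6 in IRKO, against 9.0 and 21.3 in the controls (1.15 ± 0.407, limma adjusted p = 0.0371), a call lost without control replicate 1 (0.57) or IRKO replicate 1 (1.00), 2 (1.19) or 3 (1.15), and turned to −0.37 in that scaling. Mmp23 also missed the threshold with edgeR (adjusted p = 0.0582), DESeq2 (adjusted p = 0.0725) and quantile normalization in limma (adjusted p = 0.0689). Mmp9, the gelatinase closest to Mmp2, averaged 19.1 ± 6.55 (SD, n = 4) in IRKO and 16.6 ± 8.38 (SD, n = 2) in the controls and did not pass (limma adjusted p = 0.689). Mmp13, a collagenase, averaged 11.9 ± 9.94 in IRKO and 1.05 ± 0.111 in the controls and missed the threshold (limma adjusted p = 0.0527). It had 2.97, 3.94, 18.5 and 22.4 in IRKO replicates 1 to 4, against 1.12 and 0.968 in the controls. Each control value is that of 1 read. Mmp13 passed the filter only through IRKO replicates 3 and 4, so its p-value carries little weight. Mmp9 and Mmp13 were singled out after their values were seen.

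The ADAM enzymes, membrane proteases that release surface proteins and that Timp3 can inhibit, rose in 7 of 11 tested genes and fell in 1, with a median of 0.48. Without control replicate 1 the rises numbered 4, and without control replicate 2 also 4. Adam10, the main alpha-secretase of the amyloid precursor protein, had 1164 to 1384 normalized counts in IRKO, against 669 and 683 in the controls (log2 0.95 ± 0.114, SE, limma adjusted p = 0.000136). Adam17, which releases tumour necrosis factor, had 488 to 598 in IRKO, against 326 and 289 in the controls (0.84 ± 0.132, limma adjusted p = 0.000672). Both values turned negative in the microglia-marker scaling, at −0.64 and −0.75. Adam23, a member without protease activity, fell to 814 to 919 in IRKO, against 1319 and 1334 in the controls (limma adjusted p = 0.000836). Of 15 tested ADAMTS enzymes, secreted proteases of proteoglycans and collagen precursors, 5 rose and 1 fell, with a median of 0.55. Without control replicate 2, 1 ADAMTS gene rose and 0 fell, and 3 rose without IRKO replicate 3 or with DESeq2. Adamts9 changed by −1.18 ± 0.323 (limma adjusted p = 0.0125), and by −1.06 without control replicate 2, where its call was lost. Adamts3 (0.78) and Adamts15 (0.90) had the smallest p among the rises. Adamts3 lost its call without control replicate 2 (0.59) and Adamts15 without control replicate 1 (0.63), and the values turned to −0.79 and −0.67 in the microglia-marker scaling.

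Among 21 activators and regulators of these proteases 9 rose and 4 fell, with a median of 0.33. Plau, the urokinase that generates plasmin, had 235 to 359 normalized counts in IRKO, against 106 and 94.9 in the controls (log2 1.55 ± 0.185, SE, limma adjusted p = 0.000136), or −0.04 in the microglia-marker scaling. Serpine2, a serine protease inhibitor also called protease nexin, had 3799 to 4852 in IRKO, against 23739 and 22435 in the controls (−2.41 ± 0.134, limma adjusted p = 1.27e-06). Pcsk6, a proprotein convertase, fell to 55.5 to 93.3 in IRKO, against 675 and 940 in the controls (−3.39 ± 0.236, limma adjusted p = 4.67e-06). The astrocyte markers ranged from −5.13 to −2.69 on the same log2 scale, and the values of Serpine2 and Pcsk6 lay above and within that range.

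Of 22 matrix substrates 8 rose and 7 fell, with a median of 0.50. Without control replicate 1, 4 rose and 5 fell, and without control replicate 2, 3 rose and 6 fell. Bcan and Ncan, the brain proteoglycans brevican and neurocan, fell by 4.92 and 2.95 on the log2 scale (limma adjusted p = 7.07e-07 and 7.78e-07). Nid1, a basement membrane protein, had 307, 122, 481 and 218 normalized counts in IRKO replicates 1 to 4, against 65.2 and 53.3 in the controls (2.07 ± 0.44, limma adjusted p = 0.00349), or 0.49 in the microglia-marker scaling, where its call was lost. It was highest in replicate 3, as Mmp2 and Mmp3 were. Lama1, a laminin chain, rose by 1.60 ± 0.415 (limma adjusted p = 0.00964), a call lost without control replicate 2 (1.31) and in that scaling (0.04). Of 8 tested AP-1 and ETS factors, which bind promoters of several metalloproteinase genes, 3 rose and 1 fell, with a median of 0.94. Without control replicate 2, 6 rose, and without control replicate 1 none fell. Ets1 had 589 to 808 normalized counts in IRKO, against 214 and 182 in the controls (1.89 ± 0.159, limma adjusted p = 1.64e-05), or 0.30 with its call lost in the microglia-marker scaling. Ets2 rose by 0.99 ± 0.157 (limma adjusted p = 0.000715), or −0.60 in that scaling. Jun changed by −0.43 ± 0.127 (limma adjusted p = 0.0169), a call lost without control replicate 1 (−0.25).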

How the data were processed

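The series holds 6 RiboTag libraries, 4 IRKO and 2 control, grouped by the genotype label. Per the submitters' processing notes, Bowtie2 and the build GRCm38.p6 were used; the counter, annotation, strandedness and the tool used for normalization are not given in these sources. The deposited values are normalized counts (a signal per gene), as the file headers name them. Division by each library's lowest non-zero value gave whole reads, within 0.05 reads, for 100% of them. Total recovered reads set the counting precision. All 18887 genes had their symbols as given, and 18542 matched RefSeq.

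Genes that reached 10 in 2 or more libraries were transformed as log2(value + 1), a pseudocount of 1 that understates the change of low genes, and fitted with limma 3.58.1 (R 4.3.3), IRKO minus control, with a variance trend and Benjamini-Hochberg adjustment (threshold 0.05). The fit was tested on simulated data. No pair of libraries within a group agreed within sampling noise, with chi-square per degree of freedom from 17.2 to 38.2. Replicate numbers recur in both groups, and deviations of same-numbered libraries had r of −0.082 and 0.079. With 2 controls, the deviations of 1 mirror those of the other, so these values cannot show whether libraries are paired. No pairing was used in the main fit. Members and lists were chosen with earlier results of these data known. Named genes were the members, list genes past the threshold with the smallest p, up to 2 in each direction, synapsin hosts and the 3 nearest profiles; results for some genes that met this rule are not reported here. Alternatives included other pseudocounts, filters and scalings, count tests of the recovered reads with DESeq2 1.42.0 and edgeR 4.0.16, a replicate block and leaving out each library. Alternatives chosen after seeing the data were count tests on 5 libraries, values per marker sum, and ratios without each library. Levels are not compared between genes, since transcript lengths were not used here.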

Additional observations from a re-analysis of the deposited data

Results flagged for a closer look

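Of 21 sets of 4 IRKO values examined (the 10 genes, 10 marker sums and the inhibitor to enzyme ratio), 2 had a library far from the others by Dixon's criterion, and chance flags about 1 in 20. The microglia marker sum was lowest in IRKO replicate 3, at 200333 beside a highest value of 284140 (gap ratio 0.837). The astrocyte marker sum was highest in IRKO replicate 1, at 78514 beside a lowest value of 46661 (gap ratio 0.897). None of the 10 genes passed the criterion, Mmp2 and Mmp3 in replicate 3 included.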

How the results depend on the processing

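Scaling each library to the microglia markers moved more results than the other alternatives run. It gave 43 genes higher and 12312 lower over all genes, 1 of the 10 members higher and 6 lower, and 1 of the related genes higher with 53 lower. Negative log2 differences replaced positive ones for Mmp16 (−0.51), Mmp17 (−0.66), Timp1 (−0.89), Timp2 (−0.90), Mmp24 (−0.95), Mmp23 (−0.37), Adam10 (−0.64), Adam17 (−0.75), Adamts3 (−0.79), Adamts15 (−0.67), Plau (−0.04), Ets2 (−0.60), Syn1 (−0.63), Syn2 (−0.93) and Syn3 (−1.08), by construction relative to genes that rise in IRKO. Over the members' 199 log2 differences under alternatives, 193 kept direction and call, 4 turned sign in that scaling and 2 lost their call, Mmp2 in that scaling and Mmp3 without control replicate 2 (3.21).

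Leaving out each library in turn gave 4 to 5 members higher and 4 lower, 21 to 33 related genes higher and 12 to 15 lower, and 2892 to 3663 genes higher and 3221 to 4150 lower over all genes. With the replicate block 21 related genes were higher, among them 3 ADAM, 1 ADAMTS and 5 matrix substrate genes and 0 other metalloproteinases, and Mmp24 (0.38), Mmp23 (1.32), Adamts3 (0.64), Adamts15 (0.90) and Syn3 (0.55) lost their calls; the cause was not tested. Matrix substrates numbered 5 higher with no variance trend, and ADAMTS genes 3 with a filter of 50. The inhibitor to enzyme ratio ranged from 4.07 to 4.71 (IRKO) and was 4.39 or 5.32 (control) without single libraries, and without Timp2 it averaged 0.659 in IRKO and 3.02 in the controls. Low reads limit Mmp3 in the controls and Timp1 throughout. A count of an AP-1 motif in promoters was not run, since no promoter sequence was used here.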
